A study of Homo sapiens with 6 samples.

Results

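The genes described here are 45 genes of ribosome biogenesis and of MYC-driven growth, measured by RNA-seq in hTERT RPE-1, a line of human retinal pigment epithelial cells immortalised with telomerase. They are a fixed list of gene symbols with no threshold on measured values, and all 45 were found among the 13696 genes of the deposited table. Each of the 45 passed the filter on low values, which asked for a mean of at least 1 CPM (read counts scaled to an effective library total) and left 13616 genes. The study compared 3 libraries of cells given a pre-dose of camptothecin (CPT) at 25 nM for 1 h, with harvest after 24 h without the drug, and 3 libraries of untreated cells. The drug holds topoisomerase 1 in complex with cut DNA. According to the title of the series, the study concerns how cells adapt to such inhibitors, and the libraries address gene expression after the pre-dose. All 6 libraries came from the same cell line in the same medium with serum and were made from poly-A selected RNA. The labels do not say whether replicates were separate cultures, so p-values measure the spread between these libraries, which may be technical.

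Ribosomes are built in the nucleolus. RNA polymerase I transcribes a long ribosomal RNA precursor, small nucleolar ribonucleoproteins (snoRNPs) guide its chemical modification, and a sequence of assembly factors folds and cuts it into the RNA of the small and the large subunit. The transcription factor MYC binds the DNA sequence CACGTG, the E-box, with its partner MAX, and genes of ribosome biogenesis are among its best known targets in proliferating cells.

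Effective library totals, inferred from the lowest value of each column, were 26336941 to 31780391. The CPM of the genes tested summed to as much as 1009170 in a library (untreated replicate 1), so these totals are not plain counts of reads. A count of 3 reads corresponded to 0.0944 to 0.114 CPM, a limit of counting error only, and the lowest value of any of the 45 genes was 8.01 CPM. Both replicate 1 libraries stood apart from the other 4 across the whole table, and the labels name no batch. An offset of replicate 1 was called for 5560 of 13616 genes (40.8%) in limma with treatment in the model (adjusted p under 0.05). Treatment differences of single genes are therefore also given by replicate pair. Of 9 genes that mark retinal pigment epithelium, BEST1, MITF and OTX2 were in the table, and RPE65, RLBP1, LRAT, TYR, TYRP1 and PMEL were not among its rows. KRT8, KRT18 and VIM, genes of the cultured line, were at 413 CPM or more in every library. Of 11 markers of other cell types, 1 was listed, the macrophage and lysosome gene CD68.

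After the pre-dose, no difference from untreated cells passed the test for any of the 45 genes, from MYC to the assembly factors of both subunits. In limma-trend on log2(CPM + 1), 0 of 45 passed an adjusted p of 0.05, as did 0% of all genes tested, and 0 of 45 had an unadjusted p under 0.05, against 2.06% of all genes. Voom with sample quality weights also called 0 of 45, against 0.793% of all genes. The differences, pre-dose minus untreated, ran from -0.18 (DKC1) to 0.090 (NAT10) on the log2 scale, with a median of -0.044 beside -0.0013 for all genes tested. The sign of that median differed between fits that left out 1 library. It was 0.023 without pre-dose replicate 2 and 0.00067 without pre-dose replicate 3. It was 0.081 without untreated replicate 1 and -0.14 without pre-dose replicate 1. For 34 of the 45 genes the sign of the difference changed when 1 of the 6 libraries was left out. Leaving out 1 library unbalances the replicate 1 offset between the groups, and these fits had no replicate term. Such sign changes therefore cannot show how firm the direction of the treatment difference is. The 95% intervals of the 45 genes lay between -0.67 and 0.56. This fit had no replicate term, so its errors and intervals include the replicate 1 offset. That holds for the treatment errors of single genes given below. With the replicate number as a block, the error was 0.0527 instead of 0.181 for DKC1, and 0.0365 instead of 0.108 for POLR1A. In the authors' deposited table, 0 of the 45 passed an adjusted p of 0.05, against 3.05% of all genes tested, and their smallest adjusted p was 0.102.

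By replicate pair, the median difference of the 45 genes was -0.027, -0.066 and -0.0075 in pairs 1, 2 and 3, beside -0.0039, -0.0024 and 0.0012 for all genes tested. Pre-dose was below untreated in 31, 35 and 24 of the 45 genes in these pairs, against 51.6%, 50.7% and 49.5% of all genes. It was below untreated in all 3 pairs for 13 of the 45 genes, where 16.3% of all genes were, and above it in all 3 pairs for 3 (NPM1, NAT10 and RRS1), where 15.6% of all genes were. The 13 were TCOF1, NOLC1, MYBBP1A, NOP56, RRP9, DKC1, GAR1, NOP10, UTP18, NOC4L, BYSL, NIP7 and GNL3, named after their values were seen, and 5 of them belong to the 8 snoRNP genes. The groups did not overlap for 0 of the 45 genes in either direction, against 3.36% of all genes with pre-dose higher and 3.19% with pre-dose lower. With the replicate number as a block, 0 of 45 passed, as did 0% of all genes, and 4 (TCOF1, DDX21, NOP56 and DKC1) had an unadjusted p under 0.05 as lower, against 5.40% of all genes.

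**Figure D1:**
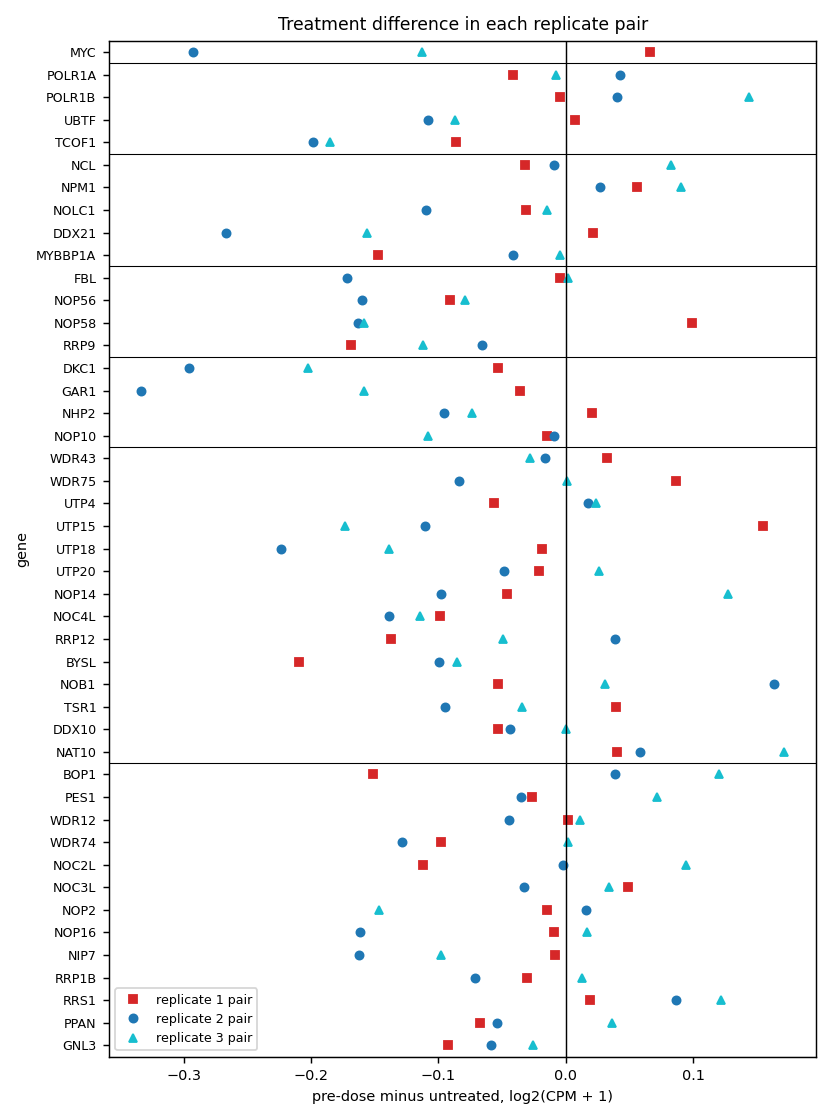
Difference between pre-dose and untreated cells on the log2(CPM + 1) scale for each of the 45 genes (rows, grouped by role), with a symbol for each replicate pair. The symbols lie on both sides of 0, between -0.33 and 0.17, and for DKC1 and GAR1 the replicate 2 pair lies furthest below 0.

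In replicates 2 and 3 alone, with 2 libraries a group, 2 of the 45 genes (4.44%) were called lower, DDX21 and DKC1. That was near the 3.47% of all genes called lower. DDX21, an RNA helicase of the nucleolus, had a difference of -0.21 (SE 0.0387, adjusted p = 0.00970 in limma). DKC1, the pseudouridine synthase of H/ACA snoRNPs, had -0.25 (SE 0.0490, adjusted p = 0.0139 in limma). Neither passed with replicate 1 included. Whether the replicate 1 pair responded in another way was tested as an interaction of treatment and replicate 1, which 0 of the 45 genes passed in limma, against 1.11% of all genes, with a smallest adjusted p of 0.168. At an unadjusted p under 0.05 the interaction held 5 of the 45, MYC, DDX21, NOP58, DKC1 and BOP1, against 12.3% of all genes. Over 20 genes of G2 and mitosis the pair differences had medians of 0.21, -0.50 and -0.29, and 20 of the 20 were called lower in replicates 2 and 3 alone. The part of that shift in the values of DDX21 and DKC1 was not tested.

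Transcripts of the ribosome biogenesis genes took a larger share of reads in replicate 1 than in replicates 2 and 3, in pre-dose and in untreated cells alike. With treatment in the model, 39 of the 45 genes were higher in replicate 1 in limma at an adjusted p of 0.05, against 20.3% of all genes called higher, and 0 were lower, against 20.6% of all genes. This test counted both replicate 1 libraries as independent, though same-numbered libraries were treated as pairs. As pairs, the contrast is 1 replicate against 2, and p-values of offsets here and below overstate the evidence. The median offset, replicate 1 minus replicates 2 and 3, was 0.33 on the log2 scale for the 45 genes and -0.012 for all genes tested. For the 39 called genes it ran from 0.12 (NPM1) to 0.71 (NOP16), or 1.08-fold to 1.63-fold on that scale. Both replicate 1 libraries lay above all 4 others for 41 of the 45 genes, against 27.2% of all genes, and below them for 1, NOC3L, against 28.3% of all genes. Untreated replicate 1 was the highest library for 31 genes and pre-dose replicate 1 for 12, and pre-dose replicate 2 was the lowest for 27.

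The mean of log2(CPM + 1) over the 45 genes was 5.91, 5.53 and 5.59 in pre-dose replicates 1, 2 and 3, against 5.94, 5.61 and 5.62 in untreated replicates 1, 2 and 3. In both groups replicate 1 stood above the other replicates, and the ranges of the groups overlapped. As these are bulk libraries scaled to their totals, a larger share of growing cells and more of these transcripts per cell cannot be told apart. Neither can be told apart from a technical difference between the replicate 1 libraries and the others. Other lists moved with replicate 1 too: the 20 genes of G2 and mitosis had a median offset of 0.37, with 12 called higher and 0 lower. The part of that shift in the offset of the ribosome biogenesis genes was not tested.

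**Figure D2:**
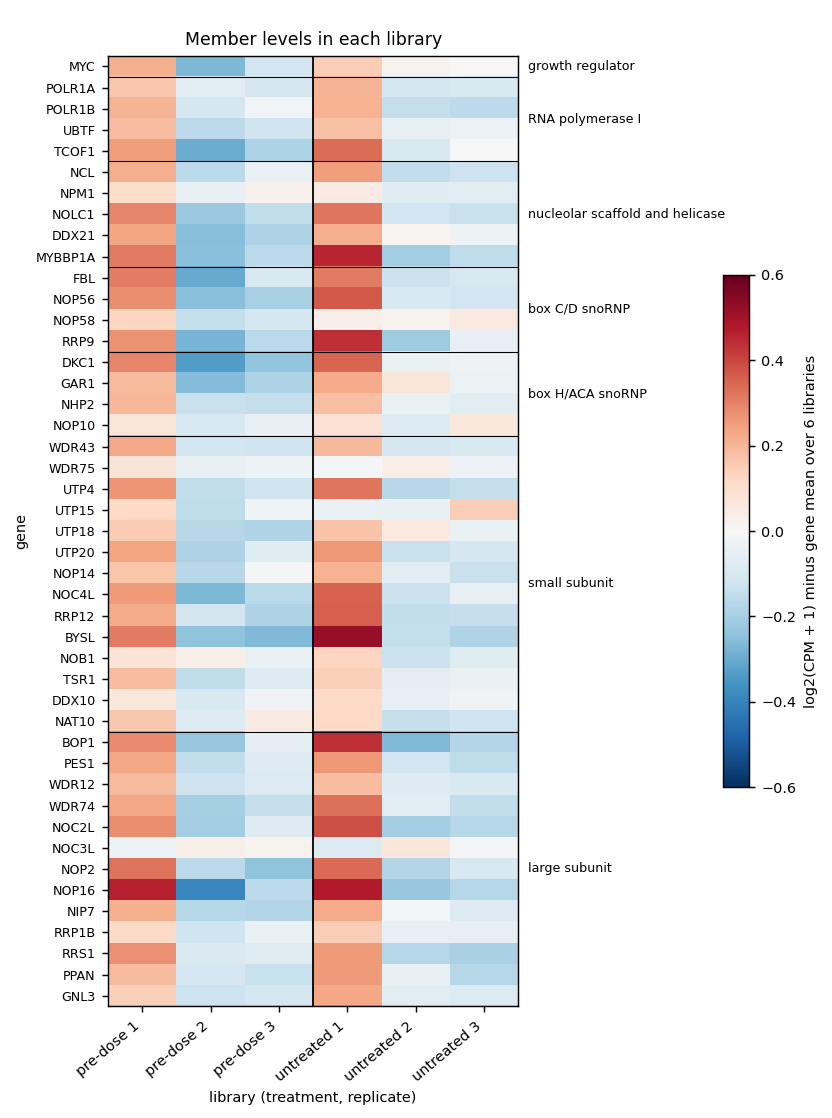
Level of each of the 45 genes (rows, grouped by role) in each library (columns, pre-dose left and untreated right), as log2(CPM + 1) minus the mean of the gene over the 6 libraries. Both columns of replicate 1 are red for nearly every gene, and NOC3L is the gene for which both are blue.

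Promoters were described because genes of ribosome biogenesis are known targets of MYC and CACGTG is the sequence that MYC is known to bind. RefSeq promoter sequences (GRCh38.p14, 250 bases before to 50 after the start RefSeq gives) were at hand for 37 of the 45 genes, MYC, BOP1 and RRS1 not among them. CACGTG, which reads the same on both strands, was present in 14 of the 37 (37.8%), against 995 of the 9982 promoters of genes in the deposited table (9.97%) and 7.43% of all 27305 promoters. Of the 16 matches in these 14 promoters, 14 began within 40 bases of the start. Positions of the matches in other promoters were not counted, so nearness to the start cannot be called particular to these genes. A match is a description of the letters and not a bound site. As the list was chosen for ribosome biogenesis and MYC-driven growth, its share of matches says nothing about these libraries. The offset had a median of 0.37 for the 14 genes with a match, 12 of them called higher, and of 0.31 for the 23 without, 20 of them called higher. The 6 promoters shown were all taken from the 14 with a match, so they do not represent the 23 without. They run from 250 bases before to 30 after the start on the gene's strand, with CACGTG in capitals. They include 4 genes that were higher in replicate 1 (FBL, RRP9, UTP4 and UTP18) and 2 that were not called (NOP10 and NOC3L).
FBL (chr19:39846350-39846629, minus strand): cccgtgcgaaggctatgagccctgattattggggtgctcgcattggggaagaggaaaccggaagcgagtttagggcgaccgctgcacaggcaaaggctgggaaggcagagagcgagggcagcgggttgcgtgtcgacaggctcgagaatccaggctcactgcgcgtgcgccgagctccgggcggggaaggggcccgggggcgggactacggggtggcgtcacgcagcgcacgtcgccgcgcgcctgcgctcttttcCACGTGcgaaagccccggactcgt
RRP9 (chr3:51941875-51942154, minus strand): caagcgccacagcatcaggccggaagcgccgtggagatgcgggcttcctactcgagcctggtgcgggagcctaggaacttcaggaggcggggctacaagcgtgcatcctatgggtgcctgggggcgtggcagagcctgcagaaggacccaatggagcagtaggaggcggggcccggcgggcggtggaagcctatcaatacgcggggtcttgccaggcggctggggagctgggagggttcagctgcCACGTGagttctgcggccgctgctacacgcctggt
UTP4 (chr16:69132399-69132678, plus strand): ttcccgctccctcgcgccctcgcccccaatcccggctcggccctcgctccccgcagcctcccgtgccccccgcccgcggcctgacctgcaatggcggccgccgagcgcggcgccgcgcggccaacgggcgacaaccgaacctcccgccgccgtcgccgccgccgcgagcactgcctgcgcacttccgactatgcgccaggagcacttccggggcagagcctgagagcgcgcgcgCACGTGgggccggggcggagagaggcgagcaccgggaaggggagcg
UTP18 (chr17:51260296-51260575, plus strand): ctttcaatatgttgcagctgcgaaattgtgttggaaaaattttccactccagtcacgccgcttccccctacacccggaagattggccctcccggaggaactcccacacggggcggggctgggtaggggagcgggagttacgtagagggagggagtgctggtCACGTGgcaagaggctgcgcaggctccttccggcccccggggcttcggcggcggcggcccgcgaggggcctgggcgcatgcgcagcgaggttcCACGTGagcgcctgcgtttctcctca
NOP10 (chr15:34343107-34343386, minus strand): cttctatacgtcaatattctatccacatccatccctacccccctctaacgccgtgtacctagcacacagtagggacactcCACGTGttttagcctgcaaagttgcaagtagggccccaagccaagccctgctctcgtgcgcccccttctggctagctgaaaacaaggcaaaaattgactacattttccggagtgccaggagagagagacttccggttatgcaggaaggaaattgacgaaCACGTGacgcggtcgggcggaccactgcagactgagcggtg
NOC3L (chr10:94362910-94363189, minus strand): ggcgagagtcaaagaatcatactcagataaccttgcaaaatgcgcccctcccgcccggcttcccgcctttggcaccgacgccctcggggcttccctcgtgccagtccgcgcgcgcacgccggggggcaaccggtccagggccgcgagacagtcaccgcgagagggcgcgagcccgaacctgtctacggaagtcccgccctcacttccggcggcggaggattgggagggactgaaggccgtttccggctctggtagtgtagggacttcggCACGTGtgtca
In FBL the match began 6 bases after the start and in RRP9 5 bases before it. UTP18 and NOP10 each held 2 matches, UTP18 at 89 bases before and 4 after the start, and NOP10 at 170 and 11 bases before it.

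MYC (chromosome 8, 127735434 to 127741434, GRCh38) had 61.8, 43.8 and 49.01 CPM in pre-dose replicates 1, 2 and 3, against 59.00, 53.9 and 53.1 CPM in untreated replicates 1, 2 and 3. Both replicate 1 values were the highest, the pre-dose values of replicates 2 and 3 were the lowest, and the groups overlapped. The means were 51.5 ± 9.27 CPM in pre-dose and 55.3 ± 3.21 CPM in untreated cells (SD, n = 3 each), a log2 difference of -0.11 ± 0.124 (SE), unadjusted p = 0.390 in limma. In pairs 1, 2 and 3 the difference was 0.066, -0.29 and -0.11, above 0 in the replicate 1 pair and below 0 in both others. The offset of replicate 1 was 0.27 ± 0.0663 (SE), adjusted p = 0.00871 in limma. It was not called without pre-dose replicate 1 (0.14, adjusted p = 0.147). Of 9 measured partners and antagonists of MYC, 1 was higher in replicate 1 and 2 were lower, against 20.3% and 20.6% of all genes. The counts were thus no larger than expected from all genes for the higher one and near that share for the lower ones. Of the 9, 6 were not called, among them MNT (0.14), MXD1 (-0.048), MXD3 (0.19) and MGA (0.065). MLX, a partner in the wider MYC network, was the higher one (0.15, adjusted p = 0.0456). The lower ones were MXI1 and MXD4, repressors that compete with MYC for MAX. MXI1 had 12.8, 21.5 and 21.6 CPM in pre-dose cells, against 12.1, 21.9 and 21.2 CPM in untreated cells, an offset of -0.75, adjusted p = 3.31e-05. MXD4 had 106, 166 and 150.4 CPM in pre-dose cells, against 108, 139 and 144 CPM in untreated cells, an offset of -0.47, adjusted p = 0.000146. For both genes the replicate 1 libraries lay below all 4 others. MAX itself, the partner that MYC needs to bind DNA, did not pass (-0.067, adjusted p = 0.285).

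All 4 genes of RNA polymerase I transcription were higher in replicate 1, with a median offset of 0.29, and none passed for treatment. POLR1A, the largest subunit of the enzyme (chromosome 2, 86020216 to 86106155), had 119, 102 and 99.3 CPM in pre-dose cells, against 123, 98.8 and 99.8 CPM in untreated cells. The replicate 1 libraries were apart from the others and the groups overlapped. Its offset was 0.27 ± 0.0360 (SE), adjusted p = 0.000364, and its treatment difference was -0.0022 ± 0.108 (SE), unadjusted p = 0.985, in limma. By pair the difference was -0.042, 0.043 and -0.0075. POLR1B, the second largest subunit (chromosome 2, 112541915 to 112577150), had 27.5, 22.1 and 23.5 CPM in pre-dose cells, against 27.6, 21.4 and 21.2 CPM in untreated cells. Its offset was 0.31 ± 0.0565 (SE), adjusted p = 0.00193. In pairs 1, 2 and 3 it differed by -0.0046, 0.040 and 0.14, so that replicate 3 showed most of the difference. UBTF, which binds ribosomal DNA and loads the polymerase, had 156, 123 and 126 CPM in pre-dose cells, against 155, 133 and 134 CPM in untreated cells. Its offset was 0.27 ± 0.0373 (SE), adjusted p = 0.000449, with a treatment difference of -0.063 ± 0.108 (SE), unadjusted p = 0.581, and 0.0075, -0.11 and -0.087 in pairs 1, 2 and 3. TCOF1, the treacle protein that couples ribosomal DNA transcription to processing (chromosome 5, 150357629 to 150400308), had 88.5, 60.3 and 65.1 CPM in pre-dose cells, against 93.98, 69.3 and 74.1 CPM in untreated cells. It was the member of the 4 with the largest offset, 0.44 ± 0.0491 (SE), adjusted p = 0.000158. Pre-dose was below untreated in each of its pairs, with log2 differences of -0.086, -0.20 and -0.18. The difference of -0.16 ± 0.166 (SE), unadjusted p = 0.376 did not pass in limma. With the replicate block the error was 0.0411, with unadjusted p = 0.00486 and adjusted p = 0.327 in limma.

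The 5 scaffold and helicase proteins of the nucleolus were all called higher in replicate 1, by 0.12 to 0.58. NCL, nucleolin, which binds ribosomal RNA precursors (chromosome 2, 231453531 to 231483641), had 814, 627 and 679.6 CPM in pre-dose cells, against 832, 631 and 642 CPM in untreated cells. Replicate 1 exceeded every other library in both groups, with an offset of 0.35 ± 0.0387 (SE), adjusted p = 0.000149 in limma. Its treatment difference was 0.014 ± 0.135 (SE), unadjusted p = 0.922, and -0.032, -0.0095 and 0.083 in pairs 1, 2 and 3. NPM1, nucleophosmin, a chaperone of ribosome assembly (chromosome 5, 171387116 to 171411137), had 701, 631 and 662 CPM in pre-dose cells, against 674, 619.8 and 622 CPM in untreated cells. The libraries lay close together, and the offset was the smallest of the called genes, 0.12 ± 0.0319 (SE), adjusted p = 0.0148. It missed the threshold without pre-dose replicate 1 (0.12, adjusted p = 0.0511) and without untreated replicate 1 (0.12, adjusted p = 0.0533). NPM1 has 45 named pseudogenes in GENCODE release 29, and how reads shared with them were counted is not given in the sources used here. NPM1 was above untreated in each pair, by 0.056, 0.027 and 0.090, and its difference of 0.058 ± 0.0638 (SE), unadjusted p = 0.394 did not pass.

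NOLC1, a nucleolar phosphoprotein that binds snoRNPs, had 183, 128 and 135 CPM in pre-dose cells, against 187, 138 and 136 CPM in untreated cells. Its offset of 0.46 ± 0.0359 (SE), adjusted p = 3.10e-05 in limma had one of the smallest errors of the 45 genes. MYBBP1A, a nucleolar protein that binds MYB and p53, had 96.8, 65.3 and 69.8 CPM in pre-dose cells, against 107, 67.2 and 70.03 CPM in untreated cells, with an offset of 0.58 ± 0.0468 (SE), adjusted p = 3.82e-05. Its untreated replicate 1 value was the highest, and both replicate 1 libraries were above all others. DDX21, described above for replicates 2 and 3, had 170.2, 121 and 127 CPM in pre-dose cells, against 168, 146 and 141 CPM in untreated cells. In untreated replicates 2 and 3 it lay above pre-dose replicates 2 and 3, while both replicate 1 values were higher still. The pair differences were 0.021, -0.27 and -0.16 and the offset was 0.34 ± 0.0516 (SE), adjusted p = 0.000751. Without pre-dose replicate 1 the offset was 0.22, adjusted p = 0.00498.

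Box C/D snoRNPs place methyl groups on ribosomal RNA, and 3 of the 4 genes of this group were higher in replicate 1, with a median offset of 0.48. FBL, fibrillarin, the methyltransferase (chromosome 19, 39834458 to 39846414), whose promoter is printed above, had 110.2, 71.9 and 83.04 CPM in pre-dose cells, against 111, 81.05 and 82.9 CPM in untreated cells. Both replicate 1 libraries were above all others, and pre-dose replicate 2 was the lowest. The offset was 0.47 ± 0.0553 (SE), adjusted p = 0.000210. The pair differences of -0.0044, -0.17 and 0.0017 were below -0.1 in replicate 2 alone, and the treatment difference was -0.058 ± 0.177 (SE), unadjusted p = 0.752. NOP56, a core protein of the particle, had 106, 73.02 and 76.01 CPM in pre-dose cells, against 113, 81.7 and 80.3 CPM in untreated cells. Its offset of 0.49 ± 0.0376 (SE), adjusted p = 3.09e-05 had the smallest p of the 45 genes. Pre-dose was below untreated in its 3 pairs, with differences of -0.091, -0.16 and -0.079, without passing (-0.11 ± 0.177 (SE), unadjusted p = 0.555). With the replicate block the error was 0.0380, with unadjusted p = 0.0194 and adjusted p = 0.405 in limma. RRP9, which recognises the U3 particle of the same class, had an offset of 0.53 ± 0.0699 (SE), adjusted p = 0.000366. NOP58, the partner of NOP56 in the particle, was the exception, with 44.3, 36.6 and 37.7 CPM in pre-dose cells, against 41.3, 41.1 and 42.2 CPM in untreated cells. Untreated replicate 1 lay within the range of untreated replicates 2 and 3, and pre-dose replicate 1 was the highest library. Its offset of 0.12 ± 0.0608 (SE), adjusted p = 0.145 did not pass. The pair differences of NOP58 were 0.10, -0.16 and -0.16, with a treatment difference of -0.074 ± 0.0831 (SE), unadjusted p = 0.402.

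Box H/ACA snoRNPs convert uridine to pseudouridine, and 3 of their 4 genes were higher in replicate 1, with a median of 0.30. DKC1, dyskerin, the enzyme of the particle (chromosome X, 154762742 to 154777689), had 70.1, 44.97 and 48.3 CPM in pre-dose cells, against 72.8, 55.4 and 55.7 CPM in untreated cells. In each pair the pre-dose value was the lower, with differences of -0.053, -0.30 and -0.20, and both replicate 1 libraries were above all others. The treatment difference was -0.18 ± 0.181 (SE), unadjusted p = 0.342, and the offset 0.48 ± 0.0537 (SE), adjusted p = 0.000156 in limma. With the replicate block the error of the DKC1 treatment difference was 0.0527, with unadjusted p = 0.00774 and adjusted p = 0.344 in limma. GAR1, a structural protein of the particle, had 11.3, 8.01 and 8.44 CPM in pre-dose cells, against 11.6, 10.3 and 9.54 CPM in untreated cells. It had the smallest treatment p of the 45 genes (-0.18 ± 0.137 (SE), unadjusted p = 0.237), which did not pass (adjusted p = 1.00). Its pairs differed by -0.036, -0.33 and -0.16. The offset of GAR1 was 0.31 ± 0.0819 (SE), adjusted p = 0.0135, and was not called without pre-dose replicate 1 (0.20, adjusted p = 0.182). NHP2, a core RNA-binding protein of the particle, had 76.5, 60.4 and 60.1 CPM in pre-dose cells, against 75.4, 64.6 and 63.3 CPM in untreated cells, with an offset of 0.29 ± 0.0415 (SE), adjusted p = 0.000584. NOP10, the smallest protein of the particle, had 45.5, 40.5 and 41.8 CPM in pre-dose cells, against 45.9, 40.8 and 45.2 CPM in untreated cells. Untreated replicate 3 was close to the replicate 1 libraries, and the offset of 0.12 ± 0.0519 (SE), adjusted p = 0.0965 did not pass.

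Among 14 genes of small subunit assembly, 11 were higher in replicate 1, with a median offset of 0.26. BYSL, bystin, a late assembly factor (chromosome 6, 41921188 to 41933046), had 26.8, 17.9 and 17.6 CPM in pre-dose cells, against 31.1, 19.3 and 18.7 CPM in untreated cells. The replicate 1 libraries stood clear of the other 4, and untreated replicate 1 was the highest. The offset was 0.62 ± 0.0574 (SE), adjusted p = 6.97e-05 and the pair differences were -0.21, -0.10 and -0.085. UTP4, a scaffold of the early processing complex, had 59.9, 44.8 and 45.7 CPM in pre-dose cells, against 62.4, 44.2 and 44.96 CPM in untreated cells. The 4 libraries of replicates 2 and 3 lay between 44.2 and 45.7 CPM, and the offset was 0.44 ± 0.0430 (SE), adjusted p = 9.28e-05. UTP18, of the same complex, had 28.8, 22.9 and 22.7 CPM in pre-dose cells, against 29.2, 26.9 and 25.1 CPM in untreated cells. Pre-dose was the lower in its pairs, with differences of -0.019, -0.22 and -0.14, and neither that difference (-0.13 ± 0.109 (SE), unadjusted p = 0.281) nor, without pre-dose replicate 1, the offset passed (0.16, adjusted p = 0.124). With all libraries the offset of UTP18 was 0.24 ± 0.0597 (SE), adjusted p = 0.00923.

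NAT10, which acetylates cytidines of ribosomal RNA, had 58.4, 49.3 and 54.1 CPM in pre-dose cells, against 56.7, 47.3 and 47.9 CPM in untreated cells. It was above untreated in each pair, by 0.040, 0.058 and 0.17, with 0.090 ± 0.0958 (SE), unadjusted p = 0.378. Its offset of 0.21 ± 0.0492 (SE), adjusted p = 0.00727 missed the threshold without untreated replicate 1 (0.17, adjusted p = 0.0604). NOB1, the nuclease that makes the final cut of the small subunit RNA, had an offset of 0.15 ± 0.0509 (SE), adjusted p = 0.0349. That call was lost without pre-dose replicate 3 or without any 1 of the 3 untreated libraries, where adjusted p values ran from 0.0723 to 0.350 and the lowest offset, without untreated replicate 1, was 0.079. The members not called were UTP15, WDR75 and DDX10, the first a pair of scaffold proteins of the early complex and DDX10 an RNA helicase. Their offsets were 0.060 ± 0.0946 (SE), 0.054 ± 0.0551 (SE) and 0.14 ± 0.0580 (SE). The other called genes of the group, WDR43, UTP20, NOP14, NOC4L, RRP12 and TSR1, had offsets of 0.24 to 0.46.

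Among 13 genes of large subunit assembly, 12 were higher in replicate 1, with a median offset of 0.37. NOP16, an assembly factor of the large subunit, had the largest offset of the 45 genes, named after its values were seen, with 23.03, 12.3 and 14.6 CPM in pre-dose cells, against 23.2, 13.8 and 14.4 CPM in untreated cells. Both replicate 1 values were 23.03 CPM or more, and the other 4 were 14.6 CPM or less. The offset was 0.71 ± 0.0762 (SE), adjusted p = 0.000135. BOP1 and PES1, which form the PeBoW complex with WDR12, had offsets of 0.54 ± 0.0638 (SE) and 0.37 ± 0.0386 (SE), and WDR12 had 0.28 ± 0.0502 (SE), or 0.43 with trends of GC content and length removed. NOC2L, which accompanies precursors of the large subunit through the nucleus (chromosome 1, 944204 to 959309), had 181, 129 and 141 CPM in pre-dose cells, against 196, 129 and 132 CPM in untreated cells. Its offset was 0.50 ± 0.0486 (SE), adjusted p = 8.97e-05. NOP2, a methyltransferase of the large subunit RNA, had 49.4, 34.9 and 32.98 CPM in pre-dose cells, against 49.9, 34.5 and 36.6 CPM in untreated cells, with an offset of 0.50 ± 0.0497 (SE), adjusted p = 9.32e-05. For both genes the replicate 1 libraries stood above all others. WDR74, RRP1B, RRS1 and PPAN, the remaining assembly factors of the group, had offsets of 0.42, 0.20, 0.39 and 0.33. NIP7 and GNL3 had the smallest treatment p of this group. NIP7, which acts in the maturation of precursors, had 23.3, 17.6 and 17.5 CPM in pre-dose cells, against 23.4, 19.8 and 18.8 CPM in untreated cells. The replicate 1 libraries were above the other 4, with an offset of 0.33 ± 0.0599 (SE), adjusted p = 0.00213. Its treatment difference was -0.089 ± 0.132 (SE), unadjusted p = 0.519, and -0.0081, -0.16 and -0.10 in pairs 1, 2 and 3. GNL3, nucleostemin, a GTP-binding nucleolar protein, had 48.3, 39.999 and 40.5 CPM in pre-dose cells, against 51.5, 41.7 and 41.3 CPM in untreated cells. Replicate 1 was again above all others, with an offset of 0.28 ± 0.0431 (SE), adjusted p = 0.000786. Its treatment difference was -0.059 ± 0.113 (SE), unadjusted p = 0.616, and -0.092, -0.059 and -0.026 by pair.

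NOC3L was the gene whose direction differed from the rest (chromosome 10, 94333226 to 94362959). It had 23.4, 24.6 and 24.4 CPM in pre-dose cells, against 22.6, 25.2 and 23.8 CPM in untreated cells. Both replicate 1 values were the lowest, that of pre-dose replicate 1 by less than 1 CPM, and the offset of -0.086 ± 0.0545 (SE), adjusted p = 0.234 did not pass. Its 95% interval was -0.21 to 0.035, which does not reach the median of the 45 genes. NOC3L is a nuclear partner of NOC2L, which had an offset of 0.50.

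**Figure D3:**
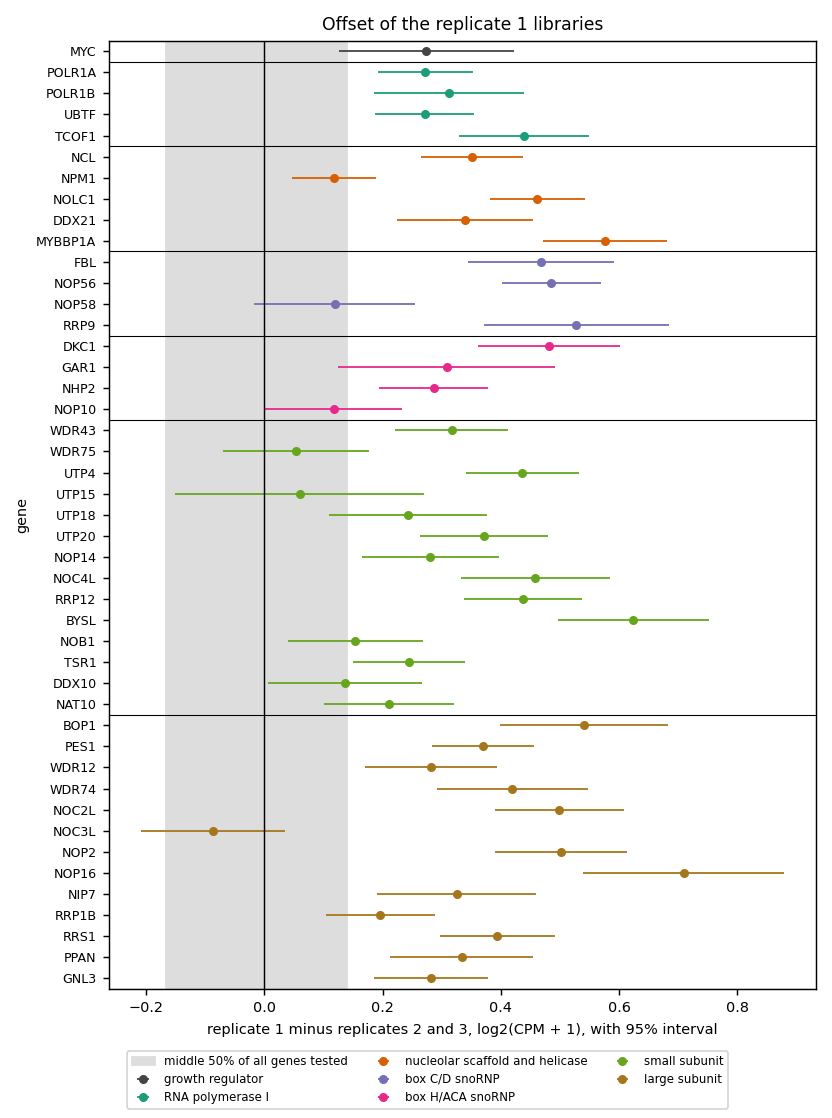
Offset of the replicate 1 libraries over replicates 2 and 3 on the log2(CPM + 1) scale for each of the 45 genes (rows, coloured by role), with 95% intervals from limma. The grey band is the middle 50% of all genes tested, from -0.17 to 0.14, and 44 of the 45 points lie above 0.

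Other genes of the same pathway, in lists drawn up by role, had median offsets of 0.12 to 0.18. Across all genes, 20.3% were called higher in replicate 1 and 20.6% lower. Of 12 measured further genes of RNA polymerase I, 3 were higher, near that share, and 1 was lower. Of these 12, 8 were not called, and the median was 0.12. CD3EAP, a polymerase I subunit, led them with 26.9, 16.2 and 17.7 CPM in pre-dose cells, against 29.3, 19.04 and 18.98 CPM in untreated cells, an offset of 0.62, adjusted p = 8.48e-05 in limma. POLR1D, shared with RNA polymerase III, was the lower one (-0.15, adjusted p = 0.0362). Of 37 further small subunit genes, 22 were higher and 1, WDR36, was lower (-0.18, adjusted p = 0.0106), with a median of 0.18. IMP4, a protein of the U3 particle, had 65.6, 43.7 and 46.5 CPM in pre-dose cells, against 65.7, 45.7 and 44.6 CPM in untreated cells, an offset of 0.53, adjusted p = 4.36e-05. Of 41 further large subunit genes, 24 were higher and 2 were lower, with a median of 0.18. The lower ones were NMD3, the export adaptor of the large subunit (-0.22, adjusted p = 0.0166), and RSL24D1, an assembly factor (-0.21, adjusted p = 0.0440). MRTO4, an assembly factor related to the stalk protein P0, had the largest offset of that list (0.53, adjusted p = 8.35e-05). None of these 90 genes passed for treatment in limma or in the authors' deposited table.

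**Figure D4:**
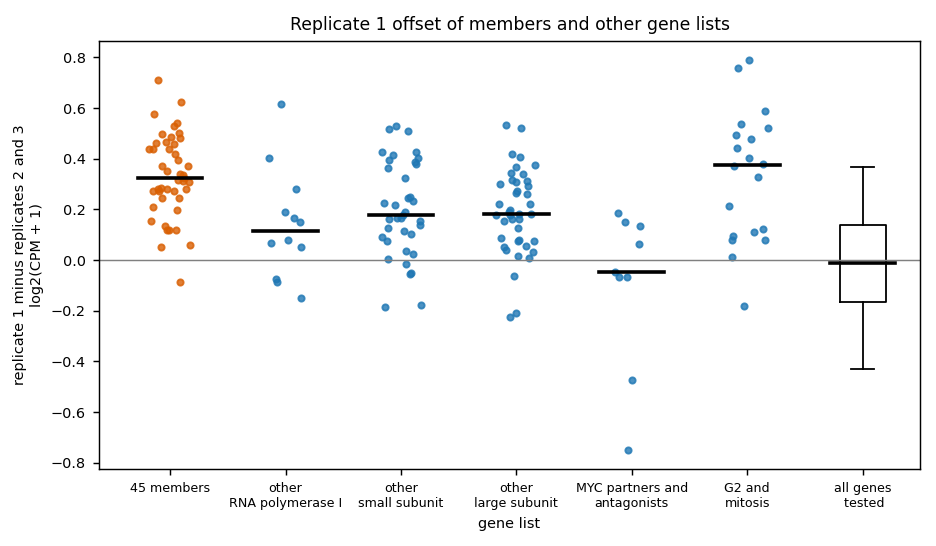
Offset of replicate 1 over replicates 2 and 3 on the log2(CPM + 1) scale, 1 point per gene, for the 45 genes and for 5 other lists, with bars at the medians, and a box with whiskers at the 5th and 95th percentiles for all genes tested. The medians are 0.33 for the 45 genes and 0.37 for genes of G2 and mitosis, against -0.012 for all genes. For 19 of the 20 genes of G2 and mitosis, and 0 of the 45, the offset differed between pre-dose and untreated cells (called interaction).

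The 45 genes lie on 18 chromosomes, and 8 of them contain 27 annotated snoRNA genes on their own strand (NCL, NOP56, NOP58, DKC1, WDR43, TSR1, PPAN and GNL3). The 8 hosts had a median offset of 0.33 with 7 called higher, and the other 37 genes 0.33 with 32 called. Exons of 19 genes overlap those of another gene in GENCODE release 29, 4 of them on the same strand, PPAN with a read-through transcript among them, and the strand setting of the counting is not given in the sources used here. For the 26 without such overlap the median offset was 0.31, with 21 called higher. The transcripts of the 45 genes had a median GC content of 51.1%, beside 48.2% for all genes, and a median length of 3455 beside 3542 bases. Across the 45 genes the offset had a Spearman correlation of 0.61 with GC content, and across 13543 genes of 0.29, all read from the same 6 libraries. When trends of GC content and length over all genes were removed from each library, 41 of the 45 genes were called higher and the median offset was 0.35. Before removal 20.3% of all genes were called higher, and the share after removal is not given here. A relation within the 45 genes steeper than the trend over all genes is not taken out by this step. The part of GC content in the offset was not tested.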

How the data were processed

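Poly-A RNA of 6 libraries was sequenced as paired reads, per the labels' protocols. The authors deposited 1 table with 13773 rows, from which 77 repeats of a gene identifier were dropped. Its sample columns hold log2 values of CPM as deposited by the authors. Read as estimated counts with 0.5 added, 100% of values under 200 reads lay within 0.05 of a hundredth of a read and 53.0 to 55.8% were whole within 0.005, so they were not whole reads. The table also holds log2 fold changes, scores (a moderated statistic), p-values and adjusted p-values of the authors' own comparison, per the file headers. Their sign was untreated minus pre-dose and was turned here. Tools named in the submitters' processing notes are limma, edgeR, DRAGEN and bcl2fastq, with the build hg38. For the counting step, its annotation and its strand setting, nothing is stated (not given in the sources used here).

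Values were turned to CPM and tested with limma-trend (R 4.3.3, limma 3.58.1) on log2(CPM + 1), keeping the genes that averaged 1 CPM or more, with Benjamini-Hochberg adjustment over 13616 genes and a threshold of 0.05. Folds on this scale understate changes of low genes. The fits were treatment, replicate 1 against replicates 2 and 3 with treatment in the model, and their interaction, with 2 residual degrees of freedom. In simulated data with a log2 change of 0.5, these recovered 21%, 70% and 3% of changed genes, and with a change of 1, 81%, 87% and 47%. For treatment with the replicate block, 59% and 91% were recovered, with 5 false calls against 0 without the block. Alternatives were a pseudocount of 0.25 CPM, no filter, median scaling, each library left out, the replicate block, replicates 2 and 3 alone and voom with sample quality weights. Removal of GC and length trends was added after seeing the data.

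Same-numbered libraries deviated together (Pearson r across genes of 0.66, 0.45 and 0.18 for replicates 1, 2 and 3), and replicate numbers were treated as pairs. Pre-dose replicate 2 and untreated replicate 3 reached 0.51, so for replicates 2 and 3 the pairing is an assumption. The genes and lists were chosen with earlier results of these data known. CPM in each library is given for MYC, NCL, NPM1, FBL, POLR1A and POLR1B and, in each role group, for the 2 genes with the smallest p for treatment and for the offset; others named were chosen after their values were seen. Positions are from GENCODE release 29 (GRCh38).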

Additional observations from a re-analysis of the deposited data

Results flagged for a closer look

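The treatment difference in the replicate 1 pair differed from that in replicates 2 and 3 for 151 of 13616 genes in limma (interaction of treatment and replicate 1, adjusted p under 0.05), 113 higher and 38 lower in replicate 1. None of the 45 ribosome biogenesis and MYC genes was among them, and 19 of the 20 genes of G2 and mitosis were. The median interaction was 0.60 on the log2 scale for the G2 and mitosis genes and 0.018 for the 45 genes. In simulated data of 13616 genes this test recovered 3% of interactions with a log2 size of 0.5, placed in genes of any level. Given the calls among the G2 and mitosis genes, that share cannot say how often a difference in these 45 genes would be called.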

How the results depend on the processing

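The median replicate 1 offset of the 45 genes kept its direction under each alternative run, with values of 0.31 to 0.35 and 35 to 41 genes called higher. The treatment median ranged from -0.14 to 0.081 without 1 library. For treatment, 0 of the 45 genes were called, with the replicate block as without it, except in replicates 2 and 3 alone, where 2 were called lower among 866 genes in all. Voom with sample quality weights called 108 genes, none of the 45. In this balanced design the block cannot change a difference or its direction, only its error, and it changed no call. The treatment difference of 34 of the 45 genes changed sign in at least 1 fit without 1 library, from 4 genes without untreated replicate 2 to 27 without untreated replicate 1. It changed sign for 5 of the 45 in replicates 2 and 3 alone, for 6 in voom and for 1 under median scaling. Single values under all treatment alternatives were kept for 17 of the 45 genes. Among these, the differences that changed sign without 1 library ranged from -0.092 to 0.14 for NCL, -0.028 to 0.18 for POLR1B, -0.23 to 0.084 for FBL, -0.083 to 0.10 for POLR1A, -0.17 to 0.010 for UBTF, -0.28 to 0.047 for NOP56 and -0.14 to 0.043 for GNL3. Leaving out a single library also unbalances the replicate 1 offset between pre-dose and untreated cells. These fits therefore cannot separate the sign of the treatment difference from that offset. The 5 that turned in replicates 2 and 3 alone were POLR1A (0.018), UTP4 (0.021), NOP14 (0.015), NOC2L (0.046) and WDR75 (-0.041). These 5 also turned in voom, POLR1A to 0.0085, as did UTP20 (0.0082). Offsets that changed sign without 1 library ranged from -0.011 to 0.25 for NOP58, -0.010 to 0.12 for WDR75 and -0.089 to 0.21 for UTP15. With GC and length trends removed, NOC3L turned to 0.018, and NOP58, WDR75 and DDX10 were called higher, while NOB1 was not called; the cause was not tested. None of these sign changes concerned a difference or an offset that was called with all libraries. Of 450 offset values of single genes under alternatives, 431 kept direction and call. With 3 libraries a group and no replicate term, 21% of simulated log2 treatment changes of 0.5 were called. With the replicate block 59% were called, and that fit also called 0 of the 45 genes. Changes smaller than 0.5 were not simulated.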

Other observations

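A pair of genes outside the ribosome biogenesis lists also stood higher in replicate 1 and were named after their values were seen. TERT, the telomerase gene used to immortalise the line, had 7.66, 5.12 and 5.81 CPM in pre-dose cells, against 9.38, 6.02 and 5.95 CPM in untreated cells, an offset of 0.50, adjusted p = 0.00181 in limma. VIM, the intermediate filament protein vimentin, had 10806, 8704 and 9112 CPM in pre-dose cells, against 11123, 8644 and 8898 CPM in untreated cells, an offset of 0.31, adjusted p = 0.000316. For both genes each replicate 1 library was above the other 4. Whether TERT reads came from the transgene or from the chromosomal gene cannot be told apart in this table.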
